A study of Mus musculus with 12 samples.

Results

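The genes described here are the mouse zinc finger genes with a numbered Zfp symbol, measured in heart RNA. Genes were chosen by their raw counts and their names. A gene was taken when its symbol was Zfp followed by digits alone, it was annotated as protein-coding, and it held 50 or more raw counts in every one of the 12 libraries. Of 27504 rows in the count matrix, 352 were protein-coding Zfp genes and 83 of these met the minimum. The minimum was read from the same counts as the levels below, and it removes genes that are near 0 in 1 arm, so counts and medians over the 83 genes are given as a description.

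Hearts came from wild-type C57BL/6 mice at postnatal day 45. Of the 12 libraries, 6 were from mice with cardiac hypertrophy modelled with angiotensin II (AngII), a peptide hormone that raises blood pressure and drives growth of heart muscle, and 6 from sham-operated mice. Each arm held 3 groups of 2 libraries: vehicle (0 mg/kg/day) and gastrodin at 5 or 50 mg/kg/day, all by the gastric route for 7 days. Gastrodin is a phenolic glucoside from the orchid Gastrodia elata. The labels name neither sex nor the dose and route of AngII, nor whether libraries of a group are from separate animals. A p-value here therefore measures spread between libraries, which may be technical.

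Zinc finger proteins of the Cys2His2 kind hold a zinc ion in each of a row of short loops, and neighbouring loops read neighbouring base triplets of DNA. Many carry a KRAB box in front of the fingers. The KRAB box recruits the co-repressor Trim28 and through it the histone methyltransferase Setdb1, which silences transposons and keeps imprinted loci methylated. Others bind promoters as activators, bind RNA, or act as ubiquitin or SUMO ligases, and the Zfp name also covers finger types that bind AU-rich mRNA.

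Libraries held 63.5 to 78.6 M counts, most of them from mitochondrial genes and their nuclear copies. Counts outside those genes and the ribosomal RNA loci made up 13.2 ± 5.28% of an AngII library and 8.09 ± 1.47% of a sham library (mean ± SD over 6 of each), or 4.49 to 15.2 M counts. Ribosomal RNA loci took 11.1% of the counts of sham 50 mg number 12 and at most 0.983% elsewhere. Heart identity was plain from the 8 cardiomyocyte markers, which summed to 4439 to 7951 CPM in AngII libraries and 2940 to 5494 CPM in sham libraries. CPM here are counts scaled to a common library size, which edgeR adjusts by TMM. Of these markers, 4 rose and Actc1, cardiac actin, fell.

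The 83 genes were modestly expressed. Their mean count over the 12 libraries had a median of 272, with a range of 91.3 to 4515, and together they held 0.404 to 0.509% of the counts outside mitochondrial and ribosomal RNA genes. Summed over the 83 genes, the level was 400 to 523 CPM in AngII libraries and 380 to 446 CPM in sham libraries. Divided by the exon length, the highest mean levels were those of Zfp106, an RNA-binding protein that maintains motor neurons and muscle in mice, at 6.13 CPM per kb, and of Zfp651, whose human ortholog is ZBTB47, at 4.05 CPM per kb. Zfp706, Zfp598 and Zfp579 followed with 2.99, 2.90 and 2.36 CPM per kb. In the deposited TPM values the order was different: Zfp740 (18.5 TPM), Zfp512 (14.3), Zfp445 (13.4), Zfp651 (13.2) and Zfp260 (10.3) led. The length that those TPM imply was 0.0519 to 1.36 times the exon length, so the order of levels depends on the length used.

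At the count minimum, Zfp281 and Zfp949 lay just inside with a lowest count of 50, followed by Zfp692 and Zfp992 with 52 and Zfp277 with 53. Zfp180, Zfp35, Zfp574 and Zfp617 lay just outside with 48, and Zfp276 with 46. Of the 269 genes below the minimum, 49 missed it only in sham libraries, 8 only in AngII libraries and 212 in both arms.

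AngII hearts had higher levels of 24 of the 83 genes than sham hearts, averaged over the 3 doses, and lower levels of 4 (edgeR's quasi-likelihood test, Benjamini-Hochberg adjusted p at most 0.0465 over 16723 genes). The largest rise was that of Zfp445, a KRAB protein that with Zfp57 maintains imprints, with a log2 fold change of 2.48 ± 0.26 (SE). The largest fall was that of Zfp664, at -1.04 ± 0.25. Called higher were 28.9% of the 83 genes, beside 13.4% of all genes tested, and called lower were 4.82%, beside 7.53%. In either direction this was 33.7%, beside 20.9%. Among 7527 other protein-coding genes with the same count minimum, a set chosen after seeing the data, 16.8% were called higher and 13.3% lower. The median log2 fold change was 0.38 over the 83 genes, 0.10 over all genes tested and -0.08 over those other genes.

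**Figure D1:**
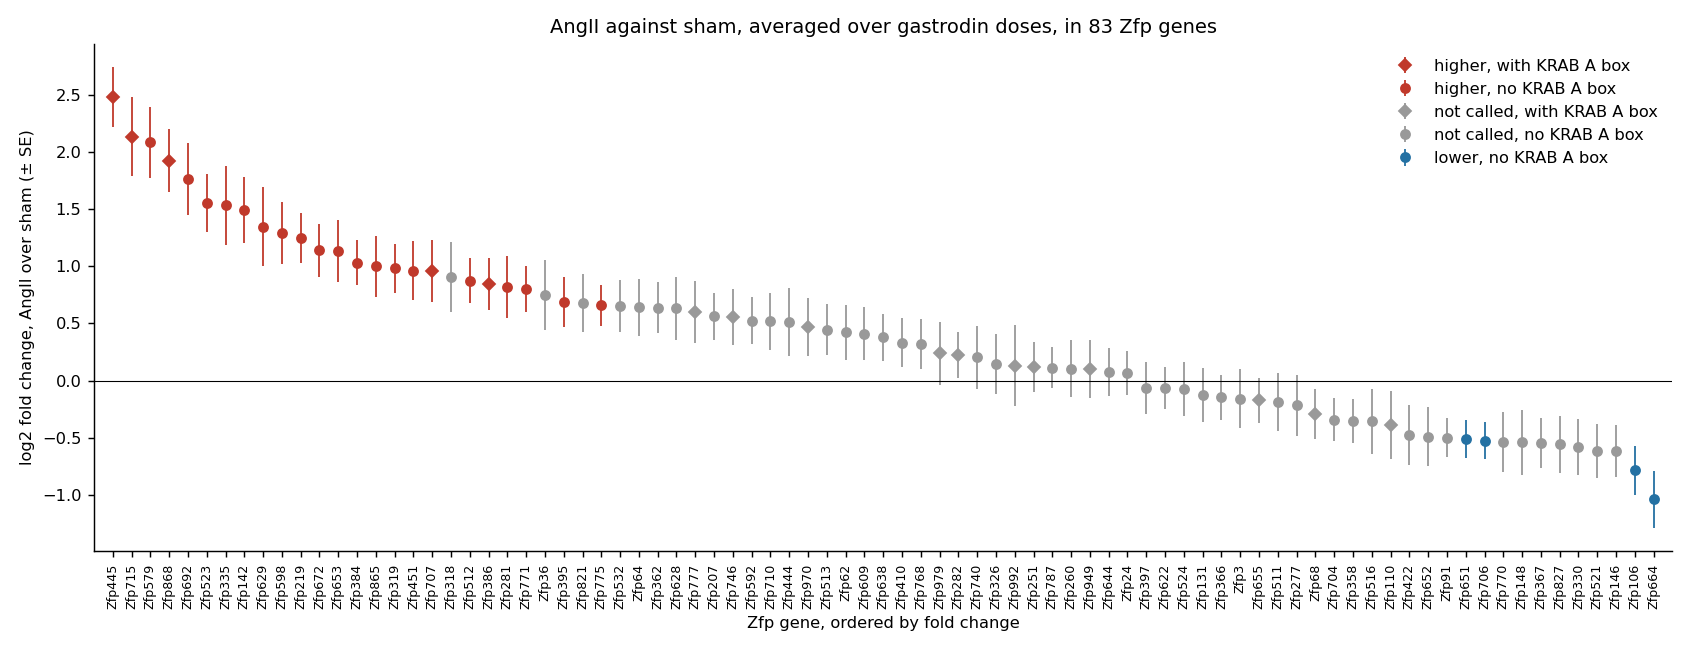
Log2 fold change of AngII over sham, averaged over gastrodin doses, for each of the 83 genes in order, with bars of 1 SE; colour gives the call and diamonds mark a KRAB A box. The values run from 2.48 for Zfp445 to -1.04 for Zfp664, with 24 genes called higher and 4 lower.

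The count of calls changed with a covariate and, as given below, with single libraries. With the share of counts outside mitochondrial and ribosomal RNA genes as a covariate, which itself moves with the arm, 6 genes were called higher and 0 lower. With this covariate, 398 of all 16723 genes tested were called higher and 74 lower. The 6 genes were Zfp445, Zfp715, Zfp579, Zfp868, Zfp523 and Zfp219. The log2 fold change of those 6 ran from 0.80 to 2.67 over all alternatives that leave the libraries in place or omit a pair of them (numbers 4 and 12). Without AngII 5 mg number 4 alone, the median log2 fold change over the 83 genes was 0.43, beside 0.13 over all genes tested. Without sham vehicle number 8 these medians were 0.35 and 0.20.

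Of the 4 largest rises, 3 were of KRAB genes. Zfp445, on chromosome 9 at 122844529 to 122866006 of GRCm38 (minus strand), encodes 986 residues with 12 fingers. Its level had a lowest, median and highest value of 8.68, 22.8 and 30.4 CPM in AngII libraries and 2.60, 4.11 and 4.62 CPM in sham libraries. Every AngII library lay above every sham library, and the adjusted p was 0.000512 (edgeR). Zfp715 (chromosome 7, 43296197 to 43313294, minus strand; 19 fingers) stood at 2.21, 6.67 and 14.6 CPM in AngII libraries and 1.16, 1.63 and 2.06 CPM in sham libraries. Zfp868 (chromosome 8, 69610857 to 69625548, minus strand; 9 fingers) stood at 2.54, 6.72 and 9.56 CPM in AngII libraries and 1.05, 1.65 and 2.33 CPM in sham libraries. Neither gene's arms overlapped, and the log2 fold changes were 2.14 ± 0.34 for Zfp715 and 1.92 ± 0.28 for Zfp868 (edgeR adjusted p = 0.00235 and 0.00144).

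Among genes with no KRAB box, Zfp579 rose most. It lies on chromosome 7 at 4983483 to 4996158 (minus strand) and encodes 8 fingers. Its levels were 6.37, 19.5 and 20.5 CPM in AngII libraries and 1.96, 3.78 and 4.94 CPM in sham libraries, without overlap, a log2 fold change of 2.09 ± 0.31 (edgeR adjusted p = 0.00161). Zfp692 (chromosome 11, 58307069 to 58314627, plus strand), whose human ortholog was described as a regulator of gluconeogenic genes downstream of AMP kinase, followed with 1.76 ± 0.31 (adjusted p = 0.00368). It stood at 3.10, 7.49 and 8.68 CPM in AngII libraries and at 0.726, 2.07 and 2.62 CPM in sham libraries. The low end of its sham range was sham 50 mg number 12.

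Zfp664, a 261-residue protein with 9 fingers, was the only gene of the 83 to fall without overlap between arms. It lies on chromosome 5 at 124862691 to 124902693 (plus strand). Levels were 2.78, 5.28 and 7.96 CPM in AngII libraries and 8.62, 10.2 and 15.5 CPM in sham libraries (edgeR adjusted p = 0.0136). Over the 83 genes, 10.8% had all AngII libraries above all sham libraries, beside 4.44% of all genes tested, and 1.20% had them below, beside 2.92%.

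**Figure D2:**
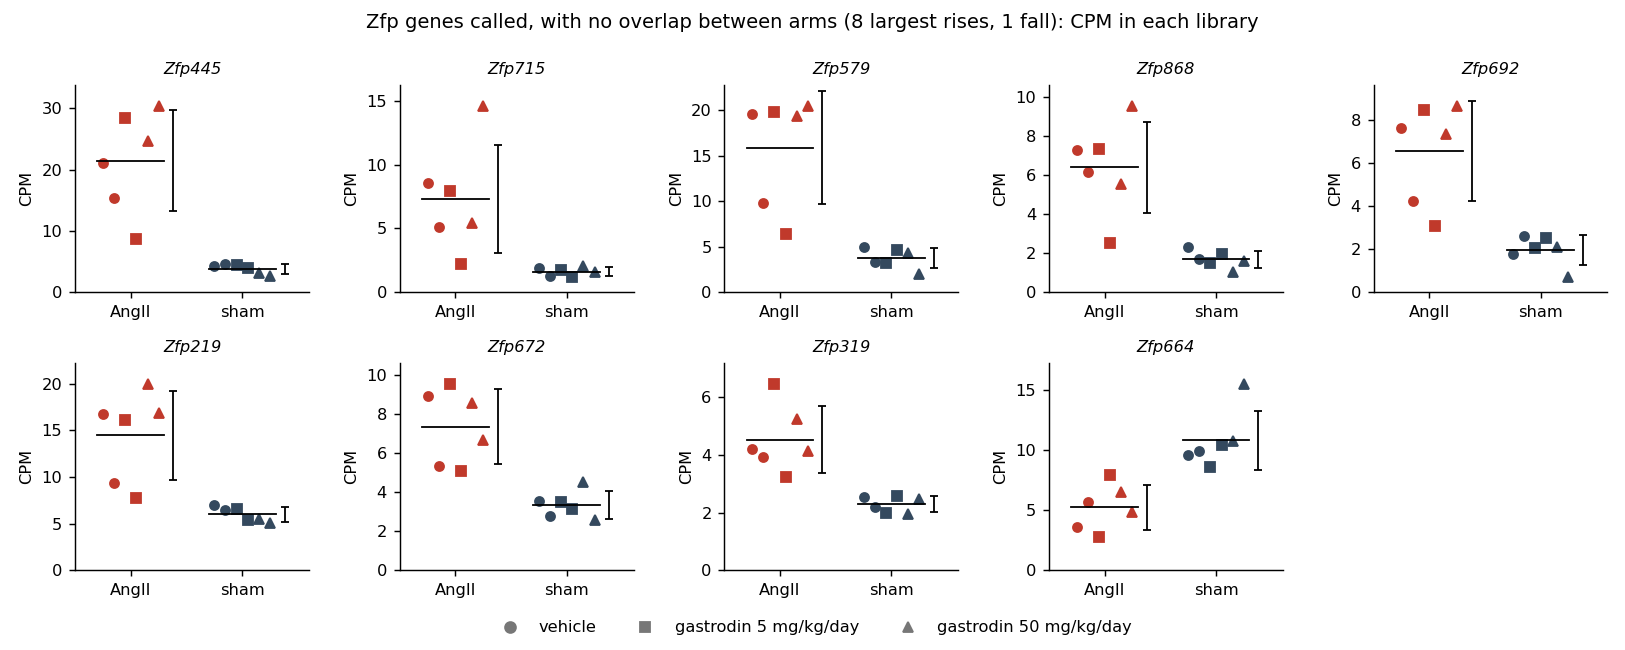
Level in CPM of 9 called genes whose arms did not overlap, with 1 point per library, AngII on the left and sham on the right; symbols give the gastrodin dose, the line is the mean and the side bar 1 SD (n = 6). In 8 genes all AngII points lie above all sham points, and in Zfp664 all lie below.

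The 250 bases before the RefSeq start of these genes (GRCm38.p6) are shown because they belong to the genes with the largest rises and to the gene that fell. They are written from 5′ to 3′ on the gene's strand, with GC boxes (GGGCGG) and CCAAT boxes (CCAAT) in capitals as found on either strand. These promoters are at chr9:122866007-122866256 (minus) for Zfp445, chr7:43313301-43313550 (minus) for Zfp715, chr8:69625549-69625798 (minus) for Zfp868, chr7:4996102-4996351 (minus) for Zfp579 and chr5:124862455-124862704 (plus) for Zfp664.
Zfp445: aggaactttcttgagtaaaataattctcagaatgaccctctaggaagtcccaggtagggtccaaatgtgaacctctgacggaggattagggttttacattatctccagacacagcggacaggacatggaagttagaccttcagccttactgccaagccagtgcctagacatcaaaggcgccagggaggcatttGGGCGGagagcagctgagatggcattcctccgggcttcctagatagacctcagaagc
Zfp715: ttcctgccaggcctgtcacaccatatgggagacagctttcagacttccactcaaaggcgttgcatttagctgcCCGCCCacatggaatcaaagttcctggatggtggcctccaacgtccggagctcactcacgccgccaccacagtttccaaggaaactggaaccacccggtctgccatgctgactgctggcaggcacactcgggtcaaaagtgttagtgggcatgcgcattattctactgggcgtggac
Zfp868: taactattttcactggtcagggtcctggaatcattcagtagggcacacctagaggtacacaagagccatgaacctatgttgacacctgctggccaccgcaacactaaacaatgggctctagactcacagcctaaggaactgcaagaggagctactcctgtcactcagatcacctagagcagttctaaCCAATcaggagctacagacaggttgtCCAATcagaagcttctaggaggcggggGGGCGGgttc
Zfp579: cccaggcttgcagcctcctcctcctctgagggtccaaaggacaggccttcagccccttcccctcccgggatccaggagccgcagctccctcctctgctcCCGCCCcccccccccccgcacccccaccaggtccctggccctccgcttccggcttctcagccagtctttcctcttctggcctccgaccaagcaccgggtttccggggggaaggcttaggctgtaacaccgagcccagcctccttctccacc
Zfp664: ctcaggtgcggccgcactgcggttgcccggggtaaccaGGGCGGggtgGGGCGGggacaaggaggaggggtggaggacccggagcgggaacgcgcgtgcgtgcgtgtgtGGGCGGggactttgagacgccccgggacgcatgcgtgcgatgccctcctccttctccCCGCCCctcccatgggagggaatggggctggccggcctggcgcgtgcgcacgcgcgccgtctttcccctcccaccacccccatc

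These promoters differed in base composition. The promoters of the KRAB genes Zfp445, Zfp715 and Zfp868 held 5, 10 and 3 CG dinucleotides, and that of Zfp579 held 10. That of Zfp664 held 28, with 74.0% of its bases G or C and 4 GC boxes. Zfp868, for which RefSeq lists 2 promoters and the first is shown, held 2 CCAAT boxes. Promoters were listed for 66 of the 83 genes, with a median of 17.5 CG dinucleotides, beside 14 over 13139 protein-coding promoters. Of these 66, the 21 called higher had a median of 13, with a range of 3 to 33. A GC box was found in 65.2% of these 66, in 53.0% of 13139 protein-coding promoters of the same length and in 32.9% of all promoters listed. For the CCAAT box the shares were 42.4%, 35.7% and 34.5%. The cyclic AMP response element TGACGTCA was found in 2 of the 66 and the E box CACGTG in 2.

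The other genes called higher included regulators of transcription. Zfp523, whose human ortholog ZNF76 activates small nuclear RNA genes, rose by 1.56 ± 0.25 on the log2 scale. Zfp335, a coactivator needed for brain growth, rose by 1.53 ± 0.34, with 2.83, 11.4 and 13.5 CPM in AngII libraries and 2.26, 3.05 and 4.72 CPM in sham libraries. Zfp219, a partner of Sox9 in cartilage cells, rose by 1.25 ± 0.22 and its arms did not overlap (7.79, 16.4 and 19.999 CPM in AngII libraries, and 5.07, 5.97 and 7.04 CPM in sham libraries). Zfp384, also known as Nmp4 or CIZ, binds nuclear matrix and limits bone formation in mice, and it rose by 1.03 ± 0.20. Zfp281, which holds down pluripotency genes in embryonic stem cells with the NuRD complex, rose by 0.82 ± 0.27, close to the threshold (edgeR adjusted p = 0.0465), and was called in 3 of 12 fits with 1 library left out.

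Among genes with enzymatic or RNA-linked roles, Zfp598 and Zfp451 were called higher. Zfp106 was called lower, and Zfp36, Zfp638, Zfp622 and Zfp91, described below, were not called. Zfp598, a ubiquitin ligase that marks collided ribosomes, rose by 1.29 ± 0.27 (edgeR adjusted p = 0.00749). It stood at 7.22, 17.0 and 23.0 CPM in AngII libraries and at 5.15, 6.38 and 8.03 CPM in sham libraries, and the arms overlapped. Zfp451, a SUMO ligase in human cells, rose by 0.96 ± 0.26. The rest of the genes called higher, with no role stated here, were Zfp142, Zfp629, Zfp672, Zfp653, Zfp865, Zfp319, Zfp707, Zfp512, Zfp386, Zfp771, Zfp395 and Zfp775. Of these, Zfp672 (1.14 ± 0.23), Zfp319 (0.98 ± 0.22) and the KRAB gene Zfp386 (0.84 ± 0.23) had no overlap between arms. With 1 library left out, Zfp395 was called in 1 of 12 fits, Zfp451, Zfp707, Zfp386 and Zfp775 in 6, Zfp865 in 9, and Zfp629 and Zfp771 in 11.

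Beside Zfp664, the genes called lower were Zfp106, Zfp706 and Zfp651, which are named because so few were called. Zfp106 fell to 31.6, 42.7 and 74.6 CPM (lowest, median and highest) in AngII libraries, against 63.6, 81.8 and 93.4 CPM in sham libraries. Only AngII 5 mg number 4, at 74.6 CPM, lay within the sham range, and the log2 fold change was -0.79 ± 0.21 (edgeR adjusted p = 0.0226). Zfp706, which limits self-renewal of mouse embryonic stem cells, fell by 0.52 on the log2 scale (SE 0.16) and Zfp651 by 0.51 (SE 0.16). With 1 library left out, the log2 fold change ran from -1.03 to -0.60 for Zfp106 and from -0.61 to -0.43 for Zfp706. It ran from -0.58 to -0.41 for Zfp651 and from -1.35 to -0.83 for Zfp664. Zfp106, Zfp706 and Zfp651 each lost their call in some of those fits, and Zfp664 in none. Over all genes, fewer were called lower in those fits than in the main fit, except without AngII 5 mg number 4. Zfp706 and Zfp651 changed sign in the TPM values (0.05 and 0.10). There the median log2 fold change over all 14271 genes was 0.22, beside 0.10 in the main fit, and 1227 genes were called higher and 26 lower. The count of 4 lower became 1 when any of AngII number 1, AngII number 6, sham number 7, sham number 9 or sham number 12 was left out, and 2 when AngII number 3 or sham number 8 was.

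Several members with well-known roles did not pass. Zfp260 is a partner of Gata4 on the promoter of the atrial natriuretic factor gene in rat cardiomyocytes. It stood at 3.29, 3.67 and 4.14 CPM in AngII libraries and at 1.86, 3.36 and 4.92 CPM in sham libraries, with a log2 fold change of 0.11 ± 0.25 (edgeR adjusted p = 0.796). The AngII values lay inside the sham range. Zfp36 encodes tristetraprolin, which speeds the decay of AU-rich mRNA. It had 3.74, 6.87 and 15.0 CPM in AngII libraries and 2.22, 4.20 and 9.78 CPM in sham libraries, with 0.75 ± 0.31 on the log2 scale (adjusted p = 0.0949).

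Among regulators of chromatin and cell fate, Zfp410, an activator of the NuRD gene Chd4, had 2.54, 3.59 and 4.27 CPM in AngII libraries and 2.11, 2.86 and 3.34 CPM in sham libraries (0.33 ± 0.22). Zfp148, also called ZBP-89, had a log2 fold change of -0.54 ± 0.28. Zfp521, which steers blood and fat lineages, had -0.61 ± 0.23 (edgeR adjusted p = 0.0769). Zfp91, a ubiquitin ligase of NF-kappaB signalling, had -0.50 ± 0.17 (adjusted p = 0.0546). Zfp207, a spindle protein that carries Bub3, had 0.56 ± 0.21, and Zfp638, an RNA-binding protein of fat cell differentiation, had 0.38 ± 0.20. Zfp622, a ribosome assembly factor in human cells, had -0.07 ± 0.18. In all, 55 of the 83 genes were not called, 31 with a positive and 24 with a negative log2 fold change between -0.62 and 0.90.

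**Figure D3:**
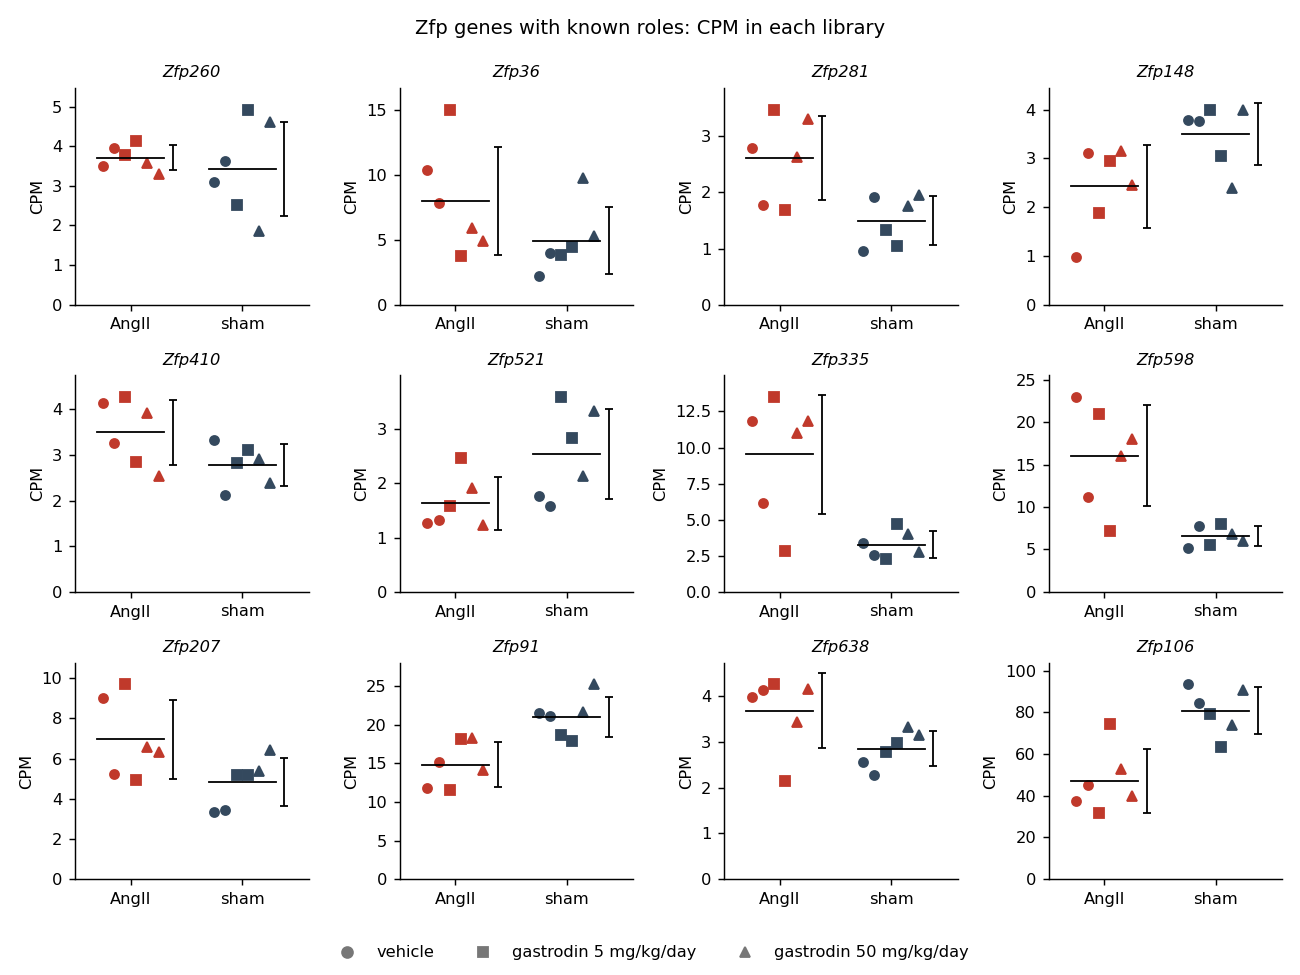
Level in CPM of 12 genes with known roles, with 1 point per library, AngII on the left and sham on the right; symbols give the gastrodin dose, the line is the mean and the side bar 1 SD (n = 6). Zfp335, Zfp598 and Zfp281 were called higher and Zfp106 lower, while the AngII points of Zfp260 lie inside the sham range of 1.86 to 4.92.

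KRAB boxes were rarer among the 83 genes than among the less expressed rest of the family. A KRAB A box was found in 16 of the 83 genes (19.3%) and in 195 of the 269 genes below the count minimum (72.5%). Of the 16, Zfp445, Zfp715, Zfp868, Zfp707 and Zfp386 rose and 0 fell. Of the 67 without the box, 19 rose and 4 fell. Over the 83 genes, 28.9% were called higher and 4.82% lower, beside 13.4% and 7.53% of all genes tested. The classes were not tested against each other. The median log2 fold change was 0.35 with the box and 0.38 without it. Fingers were counted by the spacing of their cysteines and histidines, and ran from 0 to 37 with a median of 8. Zfp142 had the 37, and no finger of this spacing was found in Zfp36, which has another finger type, or in Zfp330. Among genes with no KRAB box, 13 of 38 with 6 or more fingers rose and 2 fell, and 6 of 27 with 1 to 5 fingers rose and 2 fell, a split made after the calls were seen.

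The median share of G and C in the exons was 54.0% in the 24 genes called higher, 47.9% in the 4 called lower, 47.0% in the 55 not called and 49.8% over all genes tested. Across genes, the log2 fold change and this share had a Spearman correlation of 0.33 over the 83 genes and 0.18 over all genes tested; genes share their libraries and are not independent replicates. With each library's trend on this share removed, 22 genes of the 83 were called higher and 3 lower. Over all 16723 genes tested, 1910 were then called higher and 1215 lower, beside 2241 and 1260 in the main fit. Zfp865, Zfp707, Zfp771, Zfp395, Zfp775 and Zfp706 then lost their call, and 3 other genes gained one.

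Libraries differed within the AngII arm. AngII 5 mg number 4 had the lowest AngII level in 23 of the 24 genes called higher, and AngII vehicle number 2 in the remaining 1. As the median over those 24 genes, AngII 5 mg number 4 lay 0.20 below the mean of all libraries on the log2 scale. The other AngII libraries lay 0.26 to 0.84 above it, and sham libraries lay 0.42 to 0.70 below. The 24 genes were chosen for a rise in these same libraries, so a gap between the arms is built in. AngII 5 mg number 4 also had the lowest share of counts outside mitochondrial and ribosomal RNA genes in its arm, 7.49%. Sham vehicle number 8 had the highest share in its arm, 10.4%. Its median was -0.46, and low sham values are built into the choice of genes. The part of this share in the calls was tested only as the covariate above.

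**Figure D4:**
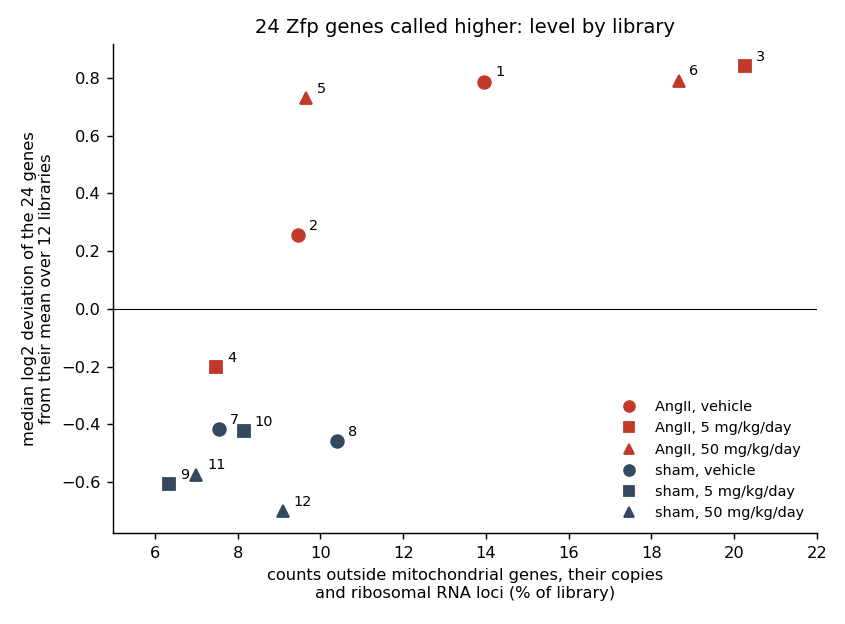
Median log2 deviation of the 24 genes called higher from their mean over 12 libraries (vertical) against the percentage of counts outside mitochondrial genes, their copies and ribosomal RNA loci (horizontal), with 1 numbered point per library. AngII libraries run from -0.20 (number 4) to 0.84 (number 3) and sham libraries from -0.70 (number 12) to -0.42 (number 7). The genes were chosen for a rise in these same libraries, so a gap between the arms is built in.

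Markers of other cell types also moved between arms, where 13.4% of all genes tested were called higher and 7.53% lower. Endothelial markers rose in 3 of 6 (63.7 to 144 CPM summed in AngII libraries, and 47.7 to 68.9 in sham libraries), smooth muscle and pericyte markers in 4 of 6 (106 to 321 and 77.5 to 162 CPM) and red cell markers in 5 of 5 (1028 to 3347 and 290 to 1741 CPM). Fibroblast markers fell in 6 of 7 (62.8 to 96.2 and 73.0 to 293 CPM) and macrophage markers in 3 of 6 (21.3 to 76.5 and 29.4 to 120 CPM). The 1 lung marker with enough counts, Scgb1a1, rose; lung markers summed to 1.20 to 8.81 CPM in AngII libraries and 0 to 1.89 CPM in sham libraries. Of the T cell and thymus markers, none of the 3 tested was called, Rag1 was at 0 in all libraries, and the sums stayed below 0.81 CPM in both arms. Nuclear-retained RNAs rose in 3 of 4, with Malat1 at 1.10 ± 0.22 on the log2 scale. Fewer cells of a type and less RNA per cell cannot be told apart in bulk heart RNA, and the part of these shifts in the zinc finger results was not tested.

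Read sharing limits some calls. Exons of 12 of the 28 called genes overlap a gene on the opposite strand, and whether counting used the strand is not stated in the labels. In 4 pairs, the genes shared at least 10% of their 100-base words: Zfp142 with Plcd4, Zfp106 with Gm26899, Zfp335 with Pcif1 and Zfp865 with Zfp784. Pcif1 had 9.26 CPM in AngII hearts and 7.86 CPM in sham hearts on average and was not called, and the remaining 3 partners had at most 1.57 CPM in either arm. With genes that overlap on the same strand summed, 25 were called higher and 4 lower.

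The response was also tested at each dose, against sham hearts of the same dose. With vehicle, 0 of the 83 genes were called by edgeR, beside 0.0598% of all genes, with 28 (33.7%) at an unadjusted p under 0.05, against 16.5% of all genes. The DESeq2 Wald test called 5 of the 83, beside 592 higher and 117 lower of all 16723 genes. For limma-voom it was 0 of the 83, beside 2 higher and 3 lower of all genes. Zfp445 had 21.0 and 15.3 CPM in AngII vehicle hearts and 4.34 and 4.62 CPM in sham vehicle hearts (2.02 ± 0.45, edgeR adjusted p = 0.104). Zfp523 had 1.95 ± 0.45 and Zfp868 1.74 ± 0.48 on the log2 scale. At 5 mg/kg/day, 0 were called by edgeR, beside 0.0% of all genes, with 18 (21.7%) at an unadjusted p under 0.05, against 2004 of the 16723 genes. DESeq2 called 1, beside 206 higher and 64 lower of all genes, and limma-voom called 0, also over all genes. The median log2 fold change over the 83 genes at this dose was 0.27, beside 0.09 over all genes. Without AngII 5 mg number 4 these medians were 0.50 and 0.08. The smallest p at 5 mg/kg/day were those of Zfp445 (2.15 ± 0.45), Zfp579 (1.74 ± 0.53) and Zfp868 (1.52 ± 0.48).

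At 50 mg/kg/day, 11 of the 83 genes were called higher and 0 lower (13.3%, beside 4.04% of all genes called higher, 1.38% called lower and 5.42% in either direction; edgeR). Zfp445 stood at 27.5 ± 4.11 CPM in AngII 50 mg hearts and 2.84 ± 0.35 CPM in sham 50 mg hearts (SD, n = 2 each), a log2 fold change of 3.27 ± 0.47 (edgeR adjusted p = 0.00472). Zfp579 stood at 19.96 ± 0.78 CPM in AngII 50 mg hearts and 3.11 ± 1.63 CPM in sham 50 mg hearts, and Zfp692 at 8.01 ± 0.95 and 1.41 ± 0.97 CPM. Their log2 fold changes were 2.69 ± 0.55 and 2.51 ± 0.56. The calls at 50 mg/kg/day changed with single libraries. Leaving out any library of this dose leaves 1 in its group, and it lowered the calls among the 83 genes and among all genes. Leaving out either AngII 5 mg library raised both. The median log2 fold change over the 83 genes at 50 mg/kg/day was 0.29 in the main fit. It ran from 0.17 without sham 50 mg number 11 to 0.41 without sham 50 mg number 12.

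**Figure D5:**
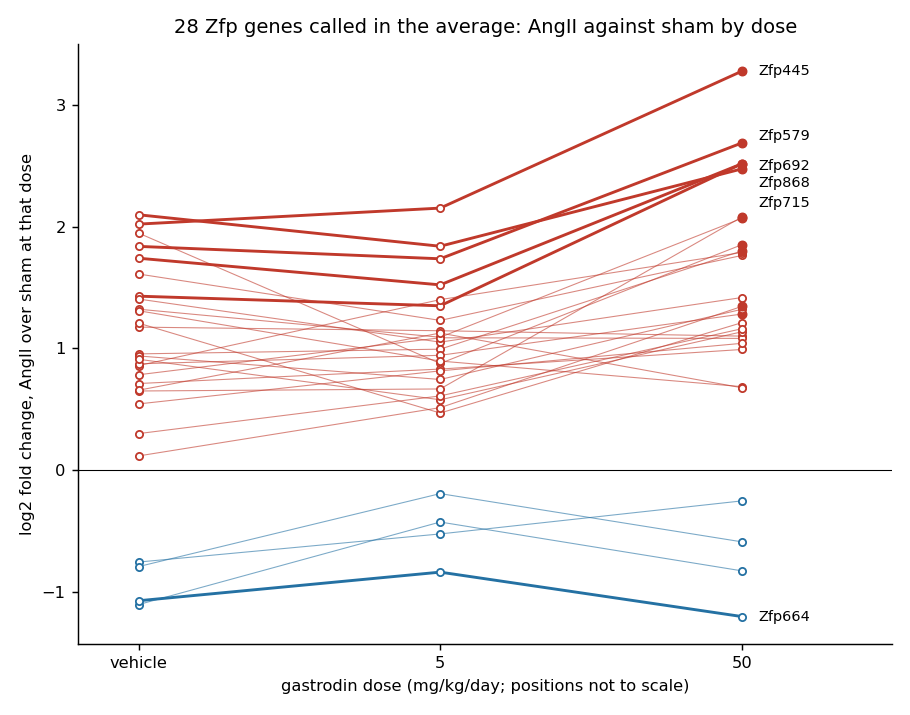
Log2 fold change of AngII over sham at each gastrodin dose for the 28 genes called in the average; filled points passed at that dose and the heavier lines are named. All 24 genes called higher in the average were above 0 at each dose, from 0.12 to 2.096 with vehicle, 0.47 to 2.15 at 5 and 0.68 to 3.27 at 50 mg/kg/day. These genes were chosen on the mean of the same 3 comparisons, so the shared sign is partly built in.

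Whether gastrodin shifted these genes was tested within each arm and as an interaction with AngII. No member was called in any of these 6 comparisons by edgeR, DESeq2 or limma-voom. In AngII hearts, 0 members were called at 5 and at 50 mg/kg/day, beside 0.00598% and 0.012% of all genes. An unadjusted p under 0.05 was found for 1 member (1.20%) at each dose, against 1.74% of all genes at 5 and 1.88% at 50 mg/kg/day. These were Zfp740 at 5 mg/kg/day, with 1.98 and 7.63 CPM against 11.2 and 9.50 CPM with vehicle (-1.12 ± 0.49), and Zfp775 at 50 mg/kg/day, with 9.05 and 8.18 CPM against 6.39 and 3.87 CPM with vehicle (0.75 ± 0.31). The median SE of a log2 fold change was 0.42 at each dose, and both doses share the vehicle libraries. For Zfp445 the effect of gastrodin in AngII hearts was 0.03 ± 0.43 at 5 and 0.60 ± 0.43 at 50 mg/kg/day. The next smallest p in AngII hearts were those of Zfp326, part of a splicing-linked complex in human cells, with -0.77 ± 0.45 at 5 and -0.92 ± 0.45 at 50 mg/kg/day, followed by Zfp521 (0.64 ± 0.40) at 5 and Zfp524 (0.81 ± 0.41) at 50.

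In sham hearts, 0 members were called at either dose, beside 0.0179% of all genes at 5 and 0.149% at 50 mg/kg/day. An unadjusted p under 0.05 was found for 1 member (1.20%) at 5 and 7 (8.43%) at 50 mg/kg/day, against 4.12% and 9.22% of all genes. Zfp358 had 2.70 and 2.98 CPM in sham 50 mg hearts and 6.58 and 4.71 CPM in sham vehicle hearts (-0.99 ± 0.34, edgeR adjusted p = 0.384). Zfp827, a telomere protein in human cells, had 10.4 and 6.52 CPM in sham 50 mg hearts and 26.1 and 13.7 CPM in sham vehicle hearts (-1.24 ± 0.44). Zfp366, also called DC-SCRIPT, a dendritic cell factor, had 3.62 and 6.15 CPM in sham 50 mg hearts and 2.89 and 2.40 CPM in sham vehicle hearts (0.89 ± 0.34). At 5 mg/kg/day in sham hearts, Zfp521 (0.94 ± 0.41), Zfp787 (-0.61 ± 0.31) and Zfp609 (-0.79 ± 0.41) had the smallest p.

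For the interaction, 0 members were called, beside 0.00598% of all genes at 5 and 0.0299% at 50 mg/kg/day. An unadjusted p under 0.05 was found for 1 member (1.20%) at 5 and 7 (8.43%) at 50 mg/kg/day, against 3.07% and 6.93% of all genes. Zfp366 (-1.46 ± 0.49), Zfp775 (1.23 ± 0.44) and Zfp358 (1.30 ± 0.48) had the smallest p at 50 mg/kg/day, the lowest adjusted p being 0.606 (edgeR). At 5 mg/kg/day these were Zfp326 (-1.47 ± 0.64), Zfp622 (0.88 ± 0.45) and Zfp740 (-1.23 ± 0.68). Zfp36, named after its values were seen, had an interaction of -2.03 ± 0.75 at 50 mg/kg/day, the largest in size among the 83 genes. It stood at 5.91 and 4.86 CPM in AngII 50 mg hearts and 10.4 and 7.83 CPM in AngII vehicle hearts, and at 9.78 and 5.29 CPM in sham 50 mg hearts and 2.22 and 3.97 CPM in sham vehicle hearts. It was called in the fit without a filter on low counts (adjusted p = 0.0254) and not with the filter (adjusted p = 0.639).

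Of the 269 Zfp genes below the minimum, 241 were tested, and 26 were called higher in AngII hearts and 0 lower (10.8% and 0.0%, beside 13.4% and 7.53% of all genes tested). Zfp612, a KRAB gene named after its values were seen, held 159 to 1015 counts in AngII libraries and 4 to 54 counts in sham libraries, a log2 fold change of 3.22 ± 0.34 that exceeds that of Zfp445. Known genes below the minimum did not pass: Zfp57, the partner of Zfp445 in imprinting, had 0.89 ± 0.70, Zfp143 0.09 ± 0.29, Zfp809 -0.34 ± 0.30, Zfp423 -0.66 ± 0.34, Zfp217 0.43 ± 0.36 and Zfp292 0.84 ± 0.29 (edgeR adjusted p = 0.0542). Over all 324 protein-coding Zfp genes tested, 50 were called higher and 4 lower. These are 15.4% and 1.23%, beside 13.4% and 7.53% of all genes. The share called higher in the whole family was thus near that of all genes, and the share called lower was below it. The median log2 fold change over the 324 genes was 0.29, beside 0.10 over all genes tested.

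Partners of KRAB proteins moved in both directions. Of 16 co-repressor genes, 7 rose and 3 fell (43.8% and 18.8%, beside 13.4% and 7.53% of all genes tested). Their median log2 fold change was 0.37, beside 0.10 over all genes tested. Trim28, the protein that KRAB boxes bind, averaged 12.2 ± 2.40 CPM in AngII hearts and 7.86 ± 0.71 CPM in sham hearts (SD, n = 6 each; 0.64 ± 0.18, edgeR adjusted p = 0.0233). Its methyltransferase Setdb1 rose by 1.46 ± 0.30, the Setdb1 cofactor Atf7ip by 1.10 ± 0.18 and the DNA methyltransferase Dnmt3a by 1.23 ± 0.20. Cbx5 and Cbx3, the HP1 proteins that read the mark, fell by 1.00 and 0.87 on the log2 scale. Trim28, Cbx5 and Cbx3 are named after their values were seen. Of 10 genes of the HUSH complex and related histone methylation, 2 rose, Fam208a (1.17 ± 0.27) and Morc2a (1.21 ± 0.31), and 0 fell, and Wiz had 0.64 ± 0.21 (edgeR adjusted p = 0.0519). Of 13 NuRD genes, Chd4 rose (1.18 ± 0.25) and Rbbp7 and Mbd2 fell (-0.64 ± 0.21 and -0.55 ± 0.18).

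Shares called higher in the Zbtb (14.3%) and the Zscan and Zkscan families (15.8%) were near the 13.4% of all genes tested. Of 35 tested Zbtb genes, which carry a BTB domain, 5 rose and 0 fell, led by Zbtb20 (1.08 ± 0.21), Zbtb48 (1.19 ± 0.31) and Zbtb21 (1.09 ± 0.29). Of 19 tested genes of the SCAN-type Zscan and Zkscan families, 3 rose and 0 fell: Zkscan3 (2.36 ± 0.26), a repressor of autophagy genes, Zkscan5 (0.95 ± 0.20) and Zkscan6 (1.38 ± 0.35). Zkscan3 averaged 11.2 ± 3.58 CPM in AngII hearts and 2.18 ± 0.30 CPM in sham hearts, without overlap. Of 14 tested Klf genes, Klf15 rose (0.72 ± 0.18) and Klf3 (-0.79 ± 0.18), Klf11 (-0.88 ± 0.27) and Klf6 fell, the last of which is named after its value was seen. Of 4 tested Sp genes, which bind GC boxes, Sp3 (-0.77 ± 0.18) and Sp1 (-0.99 ± 0.27) fell, both without overlap between arms. Sp2 (-0.21 ± 0.29) and Sp4 (-0.20 ± 0.49) were not called. The shares were 7.14% higher and 21.4% lower for Klf and 0.0% and 50.0% for Sp, beside 13.4% and 7.53% of all genes tested.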

How the data were processed

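Heart RNA (1 µg per library, RNeasy Plus Mini and TruSeq RNA kits, paired 250-base reads, per the labels' protocols) was sequenced in 12 libraries. HISAT2 2.2.1, StringTie 2.1.3 and GRCm38.p6 are named in the submitters' processing notes. For the counter, annotation and strand setting, the sources used here give nothing. Raw counts per gene form the deposited matrix, and the deposited per-library files hold TPM for 14271 genes, per the file headers.

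Symbols, positions and coding sequences came from GENCODE M21, and promoters from RefSeq (GRCm38.p6). Fingers (C-x(2 to 4)-C-x(12)-H-x(3 to 5)-H) and KRAB A boxes (a 41-residue profile from 102 boxes, score over 0 bits, a limit set after the scores were seen) were found in translated GENCODE sequences; RefSeq proteins, planned for this, were not used here. Ribosomal RNA loci include a pair of genes added after sham 50 mg number 12 was seen.

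Counts were fitted in R 4.3.3 with edgeR 4.0.16: filterByExpr, TMM, 1 mean per group, 12 libraries, quasi-likelihood F-test, 2-sided, Benjamini-Hochberg over 16723 genes, threshold 0.05. The fit had 6 residual degrees of freedom and a biological coefficient of variation of 0.476, and was tested on simulated data. SE is the log2 fold change over the root of F. The average weights the 3 doses equally. Alternatives used DESeq2 1.42.0, limma 3.58.1 with log2(TPM + 1) or voom, other filters, scalings and count minimums, and each library left out.

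Genes were named by rule: up to 8 rises and 8 falls, by size, among called genes whose arms did not overlap, a list of 20 Zfp genes with known roles, the 5 highest by TPM, 5 on each side of the count minimum, and in other comparisons the 3 largest or the 3 smallest p. The members and lists were chosen with earlier results of these data known. Motifs, further called genes and the additions marked in the text were chosen after seeing the data.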

Additional observations from a re-analysis of the deposited data

How the results depend on the processing

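The averaged count of calls (28, of which 24 higher and 4 lower) stayed within 1.5 times under DESeq2 size factors, DESeq2, limma-voom, both other filters and summed overlapping genes. It was 6 with the composition covariate, 15 with limma-trend on log2(TPM + 1) (15 higher, 0 lower), 50 of 195 genes with a mean of at least 50 counts (46 higher), 18 of 43 with 100 in every library (14 higher), and 54 of 324 tested (50 higher, added after seeing the data). A minimum of 20 gave 37 higher of 157. Genes called lower were 7 under limma-voom, 2 without a filter and 2 with a fold of at least 1.5. Each library left out gave 18 to 42 calls, with 16 to 34 higher and 1 to 8 lower; of the 24, 15 were called in all 12 such fits. The calls over all genes moved with the library left out too. In both directions they were fewest without AngII number 1 and most without AngII number 4. The median over the 83 genes moved to 0.19 with the covariate and to 0.52 with numbers 4 and 12 both left out. Over all genes these medians were 0.03 and 0.18, beside 0.10 in the main fit. With vehicle, calls were 5 under DESeq2, 10 without a filter, 1 with the covariate, 6 without that pair of libraries and 0 to 9 with 1 library left out. At 5 mg/kg/day they were 1, 7, 0, 17 and 0 to 17. At 50 mg/kg/day they were 20, 20, 4, 6 and 0 to 21. The interaction at 50 mg/kg/day had 1 call without a filter. Calls over all genes moved as well. With vehicle, 8 were called higher and 2 lower in the main fit. These counts were 592 and 117 under DESeq2, 972 and 137 without a filter, and 134 and 17 with the covariate. In the same order, they were 0 and 0, 206 and 64, 570 and 91, and 0 and 0 at 5 mg/kg/day. At 50 mg/kg/day they were 675 and 231, 1452 and 784, 1541 and 687, and 329 and 98. Without a filter, 24851 genes were tested. Signs reversed in the TPM values for Zfp148 (0.00542), Zfp91 (0.063), Zfp622 (0.30), Zfp651 (0.10) and Zfp706 (0.055). In those values the median log2 fold change over all genes was 0.22, beside 0.10 in the main fit. Signs also reversed for Zfp622 with the covariate (0.12) and without the GC trend (0.085), and for Zfp740 without the pair (-0.21). With 1 library left out, Zfp260 ran from -0.0595 to 0.38, Zfp622 from -0.16 to 0.040 and Zfp740 from -0.21 to 0.45. The cause was not tested. No paired analysis was possible because the groups share no replicate numbers. Each dose comparison rests on 2 libraries per group, with a median SE over the 83 genes of 0.42 to 0.60 on the log2 scale. Where a library is left out the lone one is assumed to vary like the others.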

Other observations

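Neighbouring genes of the set were compared after the calls were seen. In 9 pairs the members lay less than 100 kb apart. Zfp692 and Zfp672 face each other on chromosome 11 with 486 bases between their ends, and both rose (1.76 and 1.14 on the log2 scale). In 4 pairs 1 gene was called higher, and in the remaining 4 neither was. On chromosome 7, Zfp628, Zfp579, Zfp524 and Zfp865 follow each other, with gaps of 61480, 18256 and 1887 bases. Zfp579 (2.09) and Zfp865 (1.00) rose, while Zfp628 (0.63) and Zfp524 (-0.07) were not called. Further along that chromosome, Zfp260 (0.11) and Zfp146 (-0.62) lie 53646 bases apart and were not called. In the set as a whole, 17 genes were on chromosome 7, which holds 88 of the 352 genes of the family, and 5 of the 17 (29.4%) were called higher and 0 lower, beside 28.9% of the 83 genes and 13.4% of all genes tested called higher.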
